A study of Homo sapiens with 24 samples.

Results

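H3K27me3 was compared between UMUC1 cells that carried a catalytic mutant of UTX and UMUC1 cells that carried wild-type UTX. The regions compared were all broad regions listed for H3K27me3 in the mutant line (247366) and in the wild-type line (199801) on chromosomes 1 to 22 and X. They made up 447167 of the 1482626 peaks and regions in the 18 peak lists of the series. H3K27me3, trimethylation of lysine 27 on histone H3, is laid down by the Polycomb repressive complex PRC2 and marks silenced genes and wide repressed domains. UTX, also called KDM6A, is a demethylase that takes methyl groups off this lysine, and it also belongs to the MLL3 and MLL4 complexes, which place H3K4me1 at enhancers. H3K27ac sits on the same lysine as H3K27me3 and marks active enhancers and promoters, so that one histone tail cannot carry both.

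UMUC1 is an established human bladder cancer cell line. Each of 3 lines was a stable line made with a puromycin-selected pSIN construct, and all were harvested on the third day after plating, fixed with paraformaldehyde and sonicated for this chromatin immunoprecipitation. The HEAA line carried UTX with the substitutions H1146A and E1148A in its catalytic domain, the WT line carried wild-type UTX, and the EV line carried the empty vector. The labels do not say whether a line was 1 clone or a pool of cells. H3K27me3 had 1 list per line, so no value below has a replicate error and no difference was tested. Folds are HEAA over WT unless another pair is named. Intervals on shares are 95% Wilson intervals and cover counting error only.

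The HEAA line had the longest H3K27me3 list and the WT line the shortest. The regions covered 251 Mb in HEAA, 168 Mb in WT and 239 Mb in EV, a ratio of 1.49 for HEAA over WT. The median region was 622 bp wide in HEAA, 546 bp in WT and 613 bp in EV. The widest region spanned 42288 bp in HEAA, 35537 bp in WT and 43296 bp in EV. A −log10 q of 2 or more, a stricter limit than the caller's own, was reached by 40.0% of regions in HEAA, 27.6% in WT and 40.0% in EV. With only those regions kept, the ratio of covered length was 2.06, and with a limit of 3 it was 3.11.

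Enrichment ran the other way from length. The median fold enrichment over background, the authors' value for each region, was 2.35 in HEAA, 2.59 in WT and 2.44 in EV. Regions with a −log10 p between 3 and 3.5 also differed in their median fold, which was 2.35 in HEAA, 2.59 in WT and 2.43 in EV. At a −log10 p between 5 and 5.5 it was 2.91 in HEAA, 3.18 in WT and 3.05 in EV. In a Poisson model of fragment counts, a smaller fold reaches the same p where more fragments are counted. The order of the fold at equal p was the inverse of the order of covered length in the 3 lists. Sequencing depth is unknown, and its part in the longer HEAA list was not tested.

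Most WT regions were also called in HEAA, while nearly as many HEAA regions lacked a WT region as had one. A region was counted as shared when it overlapped a region of the other list by at least 1 bp. Of the HEAA regions, 130513 were shared with WT (52.8%, interval 52.6% to 53.0%). The other 116853, 47.2% of the HEAA list, were called in HEAA and not in WT. Of the WT regions, 149736 were shared with HEAA (74.9%, 74.8% to 75.1%). The other 50065, 25.1% of the WT list, were called in WT and not in HEAA. The order of these shares turned when HEAA was cut to its regions with the best q, so that both lists covered the same length. They were then 69.6% in HEAA and 52.0% in WT. A missing partner means that the other list did not pass the calling threshold there, which does not show that the mark was absent.

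The shared bases amounted to 119 Mb, which was 47.5% of the HEAA length and 70.8% of the WT length. Much of the length that was not shared lay next to shared regions. HEAA had 132 Mb outside the WT regions, and 67.4 Mb of it (51.1%) belonged to regions that overlapped a WT region elsewhere. WT had 49.2 Mb outside the HEAA regions, and 27.4 Mb of it (55.7%) belonged to regions that overlapped a HEAA region elsewhere. The regions with no partner were also close to the other list. The nearest WT region lay a median of 1.78 kb from a HEAA-only region, and the nearest HEAA region 0.847 kb from a WT-only region. More than 10 kb separated 16.8% of HEAA-only regions and 5.73% of WT-only regions from the other list.

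The most enriched shared regions were taken as the 10 merged regions that ranked highest by fold, averaged over the HEAA and WT lists. A region had to be high in both lists to be chosen, so nothing is read from how alike their folds were. EV had no part in the choice, which favours a lower fold in EV, so nothing is read from that order either. The first lay on chromosome 21 from 45664245 to 45669030, with a fold of 5.57 in HEAA, 5.12 in WT and 4.25 in EV. It lay 70 bp from a UTX binding site, and 2262 bp of it were covered by H3K4me1. A neighbouring pair lay on chromosome 3. The region from 133649567 to 133662267 had a fold of 4.90 in HEAA, 5.11 in WT and 4.98 in EV, and the region from 133663461 to 133678646 had 5.10 in HEAA, 4.75 in WT and 4.65 in EV. These were 174 bp and 772 bp from a UTX site. The regions of the 10 on other chromosomes were 142 kb to 1794 kb from one. The share of all shared regions so close to a UTX site was not counted, so no link is read from these distances.

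The end of chromosome 20 held 5 of the 10. The region from 61169425 to 61178582 had a fold of 4.57 in HEAA, 4.62 in WT and 3.20 in EV. The region from 62104469 to 62107669 had 4.57 in HEAA, 4.62 in WT and 3.17 in EV. EV was lower at both, an order that the choice by HEAA and WT favours. The region from 61651894 to 61659320 had 4.71 in HEAA, 4.50 in WT and 4.98 in EV, with EV highest. The regions starting at 62731244 and 60788891 had folds of 4.50 and 4.54 in HEAA, 4.43 and 4.31 in WT, and 3.82 and 3.64 in EV.

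On chromosome 15, the region from 23685390 to 23686832 stood apart from the other shared regions, with a fold of 4.28 in HEAA, 5.39 in WT and 3.71 in EV. Its −log10 q was 14.3 in HEAA, 15.0 in WT and 8.86 in EV, with EV lowest. On chromosome 1, the region from 148854027 to 148854598 had 5.07 in HEAA, 4.72 in WT and 4.68 in EV. It was the narrowest of the 10, at 572 bp, and the one that met no H3K4me1 region. All 10 were also called in EV, 9 met H3K4me1, and the nearest H3K27ac region was 16.6 kb to 297 kb away.

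The share of regions with a partner rose steeply with region width. Regions were split by deposited width into 5 classes. Below 300 bp, 23.7% of HEAA regions were shared with WT and 53.3% of WT regions with HEAA. Between 500 bp and 1 kb, 50.2% of HEAA regions and 80.4% of WT regions were shared. Between 1 and 2 kb these shares were 79.4% in HEAA and 96.3% in WT. At 2 kb or wider, 98.1% of HEAA regions and 99.9% of WT regions had a partner, which left 514 HEAA-only and 12 WT-only regions. The difference between the widest and the narrowest class of HEAA was 74.4 percentage points. The 1 bp rule favours wide regions, which have more room to meet a partner, and the share to be met from width alone was not computed. Counted by bases, 17.8% of the HEAA length below 300 bp and 67.8% at 2 kb or wider lay in WT regions.

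**Figure D1:**
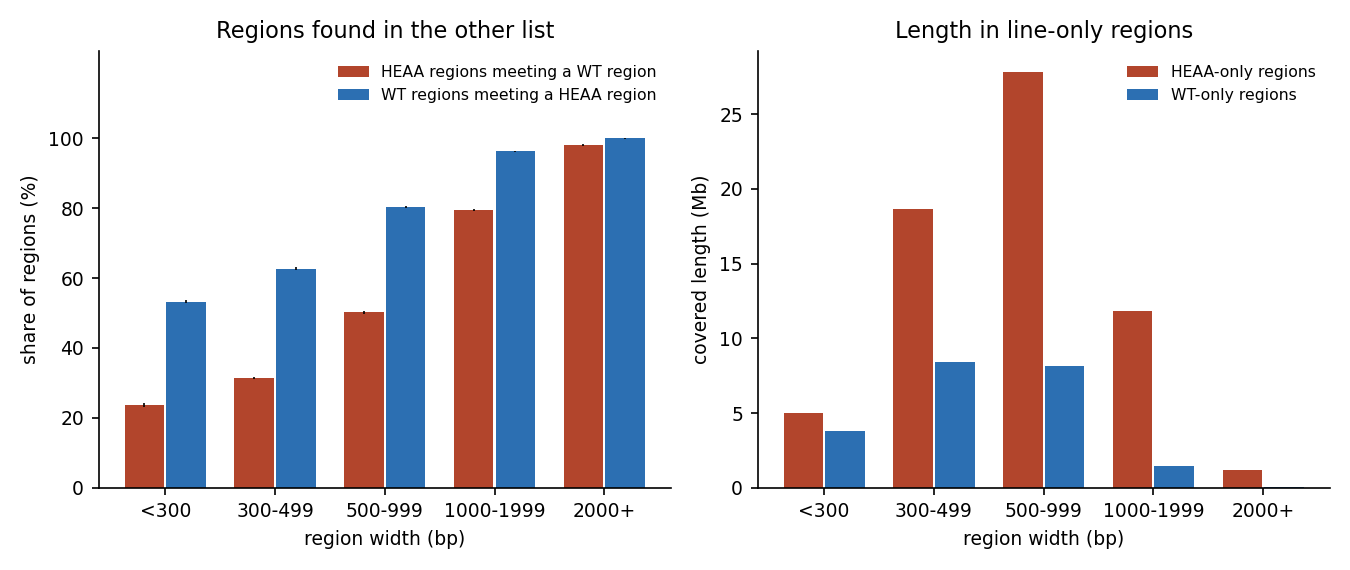
Left, percentage of HEAA and of WT regions that met a region of the other list, by region width in bp, with 95% Wilson intervals as thin bars; right, length in Mb of HEAA-only and WT-only regions. Sharing is higher in wider classes, reaching 98.1% in HEAA and 99.9% in WT at 2 kb or wider, and the HEAA-only length is highest between 500 bp and 1 kb, at 27.8 Mb.

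Regions of 2 kb or wider were shared almost completely by count and less so by bases. They made up 10.7% of the HEAA list and 38.7% of its length, and 7.36% of the WT list and 29.4% of its length. Of the bases in this class, 67.8% in HEAA lay in WT regions and 88.5% in WT lay in HEAA regions. The HEAA-only length lay mostly in the classes below 1 kb. It was 5.01 Mb below 300 bp, 18.7 Mb between 300 and 500 bp and 27.8 Mb between 500 bp and 1 kb. Between 1 and 2 kb it was 11.8 Mb, and at 2 kb or wider 1.20 Mb. The WT-only length was 3.79 Mb, 8.42 Mb, 8.12 Mb, 1.44 Mb and 0.0274 Mb in the same classes. The median HEAA-only region was 459 bp wide, against 943 bp for shared HEAA regions, and the median WT-only region 377 bp, against 655 bp for shared WT regions.

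Regions with better q values were shared more often, and this held inside each width class. In the weakest 10% of HEAA regions by q, 24.0% were shared with WT, and in the strongest 10%, 86.8% were. The same steps in WT were 52.5% and 93.1%. Among HEAA regions of 500 bp to 1 kb, the stronger 41208 by q were shared in 60.7% of cases and the weaker 41207 in 39.6%. Among WT regions of this width, the stronger 31812 were shared in 87.4% of cases and the weaker 31812 in 73.4%. HEAA-only regions had a median fold of 2.26, below the 2.45 of shared HEAA regions. WT-only regions had 2.49, below the 2.64 of shared WT regions.

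Regions of 1000 bp or wider without a partner were more frequent in HEAA than in WT. Of the 71437 HEAA regions of that width, 9776 (13.7%) had no WT partner, and the widest was 4613 bp. Of the 46508 WT regions, 1204 (2.59%) had no HEAA partner, and the widest was 3078 bp. The nearest region of the other list was a median of 1.24 kb away from these HEAA regions and 0.679 kb from these WT regions. The 10 HEAA-only regions of 1000 bp or wider with the highest fold had values of 3.20 to 3.47. The highest lay on chromosome 16 from 24058816 to 24060120, with a fold of 3.47 in HEAA and 2.52 in EV, and a WT region was 0.789 kb away. On chromosome 9, the region from 104107162 to 104108690 had 3.40 in HEAA and 2.55 in EV. On chromosome 12, the region from 97379523 to 97380694 had 3.34 in HEAA and 2.90 in EV, and was the one of the 10 that met H3K4me1. On chromosome 8, the region from 93152610 to 93154286 went the other way, with 3.25 in HEAA and 3.85 in EV. The 10 were chosen by a high fold in HEAA, which favours a lower fold in EV, so nothing is read from that order.

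On chromosome 5, the region from 88368538 to 88369539 had a fold of 3.38 in HEAA and no region in WT or EV. It was the most isolated of the 10, with the nearest WT region 4.90 kb and the nearest EV region 15.9 kb away. For the other 9 the nearest WT region was at most 1.40 kb away. Of the 10, 8 were called in EV, as were 66.6% of all HEAA-only regions of 1000 bp or wider. The 10 matching WT-only regions had folds of 3.12 to 3.39, with a HEAA region at most 2.51 kb away. Of these, 8 were called in EV, as were 62.4% of all WT-only regions of 1000 bp or wider. The first, on chromosome 16 from 75511247 to 75512334, had 3.39 in WT and 2.34 in EV, met H3K4me1, and lay 0.103 kb from a HEAA region. On chromosome 5, the region from 113635010 to 113636131 had 3.28 in WT and 2.75 in EV, and on chromosome 22 the region from 19577400 to 19578615 had 3.20 in WT and 2.76 in EV. On chromosome 1, the region from 208814564 to 208815566 had 3.14 in WT and 3.49 in EV, with EV higher. Choice by a high fold in WT favours a lower fold in EV, so nothing is read from that order either.

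Wide HEAA regions corresponded to several WT regions in a row, which was less so the other way. Each of the 4318 HEAA regions of 5 kb or wider met at least 1 WT region. The median number of WT pieces inside one was 3, the highest was 12, and 57.8% held 3 or more. WT regions covered 78.6% of their bases. Each of the 1710 WT regions of 5 kb or wider met a HEAA region, with a median of 1 piece, a highest number of 5, and 13.6% with 3 or more. HEAA regions covered 94.1% of their bases.

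The widest domains were present in both lines and more completely covered in HEAA. Regions of both lists were joined over gaps of up to 3 kb into 79493 domains, of which 158 spanned 100 kb or more. HEAA regions covered 69.0% of these 158, WT regions 57.9% and EV regions 61.3%, and the HEAA length was the longer of the pair in 158 of 158. The longer HEAA list helped to define these domains and EV had no part in them. That favours HEAA over WT, and both over EV. The widest domain lay on chromosome 20 from 57664240 to 57997591. It was 86.3% covered in HEAA by 62 regions, 77.5% in WT by 94 regions and 74.7% in EV by 94 regions. Its longest single region was 20.0 kb in HEAA, 14.3 kb in WT and 15.4 kb in EV, and its highest fold was 3.72 in HEAA, 3.83 in WT and 3.49 in EV.

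**Figure D2:**
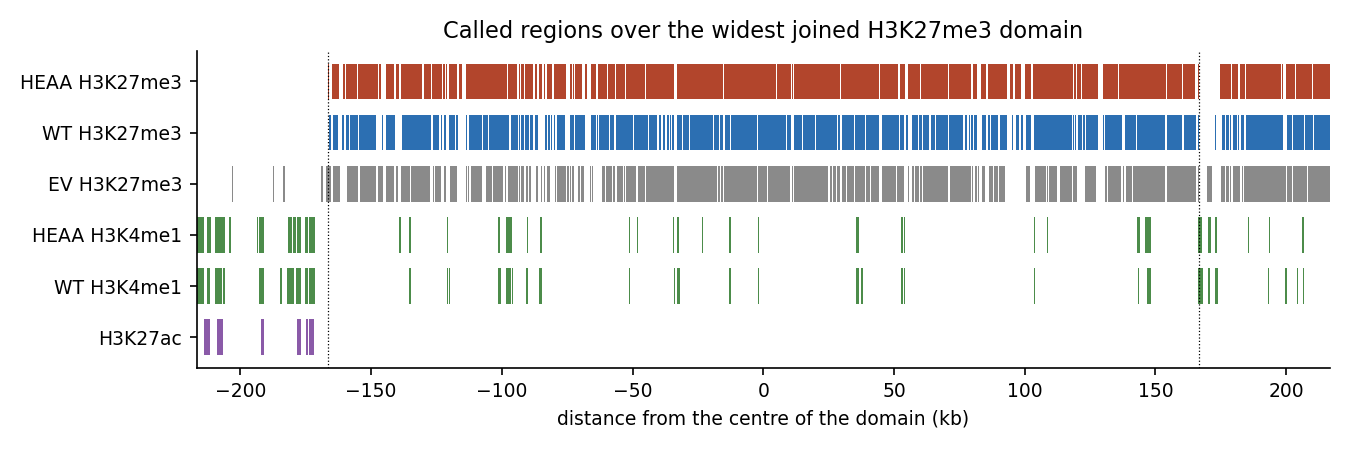
Called regions of H3K27me3 in HEAA, WT and EV, of H3K4me1 in HEAA and WT, and of the H3K27ac frame, against the distance in kb from the centre of the widest domain, whose ends are dotted. The domain is filled by 62 regions in HEAA, 94 in WT and 94 in EV, and the H3K27ac regions lie outside it.

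The next 4 domains showed the same division into fewer regions in HEAA than in WT. The domain on chromosome 11 from 126521715 to 126757548 was 76.6% covered in HEAA by 74 regions, 72.8% in WT by 83 and 77.9% in EV by 74. The domain on chromosome 12 from 2514012 to 2733115 was 76.4% covered in HEAA by 69 regions, 66.4% in WT by 94 and 82.0% in EV by 51. The domain on chromosome 11 from 45359610 to 45577968 was 59.8% covered in HEAA by 79 regions, 50.5% in WT by 92 and 48.1% in EV by 76. The domain on chromosome 13 from 27273124 to 27487120 was 72.7% covered in HEAA by 65 regions, 56.6% in WT by 84 and 67.1% in EV by 72. HEAA cover exceeded WT cover in all 5 domains, and EV cover exceeded HEAA cover on chromosome 12 and at the first chromosome 11 domain. None of the 5 contained any H3K27ac base.

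Domains defined in EV alone, and so without either list under comparison, gave a ratio that was smaller in wider domains. EV regions joined over gaps of up to 3 kb were split by width. In the 29071 EV domains below 1 kb, HEAA covered 27.0% and WT 15.5% of bases, a ratio of 1.74. In the 9045 domains of 10 to 30 kb, HEAA covered 49.6% and WT 36.4%, a ratio of 1.36. In the 64 domains of 100 kb or wider, HEAA covered 72.0%, WT 61.5% and EV itself 74.2%, and the ratio of HEAA over WT was 1.17. HEAA was the longer in 63 of these 64 domains and WT in 1. Outside the EV domains HEAA had 64.8 Mb and WT 33.2 Mb, a ratio of 1.95.

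The gradient kept its direction in 3 other settings and turned in another. With −log10 q of 2 or more the ratio was 3.05 in EV domains below 1 kb, 1.41 in those of 100 kb or wider and 3.37 outside EV domains. With 3 or more it was 3.78, 2.40 and 3.99 in the same places, and with equal numbers of regions 1.45, 1.15 and 1.53. When HEAA was cut to its 117771 regions with the best q, so that both lists covered the same length, the ratio was 0.802 in EV domains below 1 kb, 1.07 in those of 100 kb or wider and 0.800 outside EV domains. The 2 ends of the gradient then lay on opposite sides of 1. This cut was chosen after the data were seen. Since it removes the weakest HEAA regions and leaves all WT regions, it does not treat the lists alike. The setting with equal numbers of regions does the same to a lesser extent, with HEAA cut to its 199801 regions with the best q.

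**Figure D3:**
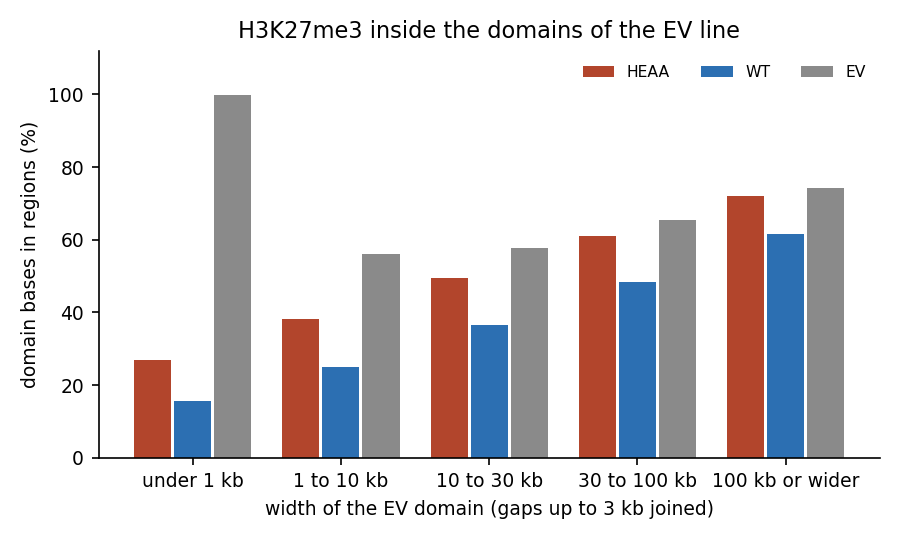
Percentage of domain bases in H3K27me3 regions of HEAA, WT and EV, by width of the EV domain in kb. HEAA is above WT in every class, with 27.0% in HEAA and 15.5% in WT below 1 kb and 72.0% in HEAA and 61.5% in WT at 100 kb or wider; the EV bars describe how the domains were joined.

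Taken over all widths, regions called in one of the lines and not in the other were in EV about equally often. Of HEAA-only regions, 46156 were also called in EV (39.5%, interval 39.2% to 39.8%). Of WT-only regions, 19484 were (38.9%, 38.5% to 39.3%). Shared regions were called in EV in 78.0% of cases for HEAA and 77.6% for WT. The difference of 0.58 points between HEAA-only and WT-only regions was 3.73 points at a −log10 q of 2 or more, and it turned to -2.16 points at equal covered length.

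Along the chromosomes, HEAA covered more than WT almost everywhere. Of 3049 bins of 1 Mb, 1603 had at least 50 kb covered in either list and were compared. HEAA was at least 1.5 times as long as WT in 799 of them (49.8%), and WT was at least 1.5 times as long as HEAA in 0 (0%). HEAA was the longer in 1602 bins and WT in 1. Bins could enter through one list, and 457 reached 50 kb in HEAA and not in WT, of which 393 were at least 1.5 times as long in HEAA. Of the 1146 that reached 50 kb in both, 406 (35.4%) were. With a minimum of 100 kb in either list it was 345 of 951 (36.3%). Chosen by EV alone, with at least 50 kb there (a filter added after the data were seen), 734 of 1571 bins (46.7%) were at least 1.5 times as long in HEAA and 0 in WT. Over the 1603 bins, the median ratio was 1.50, close to that of the whole lists, and its 5% and 95% points were 1.18 and 2.47. Divided by the whole-list ratio, 122 bins were at least 1.5 times higher in HEAA and 1 was at least 1.5 times lower. At equal covered length, 17 bins were at least 1.5 times longer in HEAA and 35 in WT, of 1218 compared. The covered lengths of the bins went together, with a Pearson r of 0.97 and a Spearman rho of 0.95 over 1603 bins that share their library within each list.

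**Figure D4:**
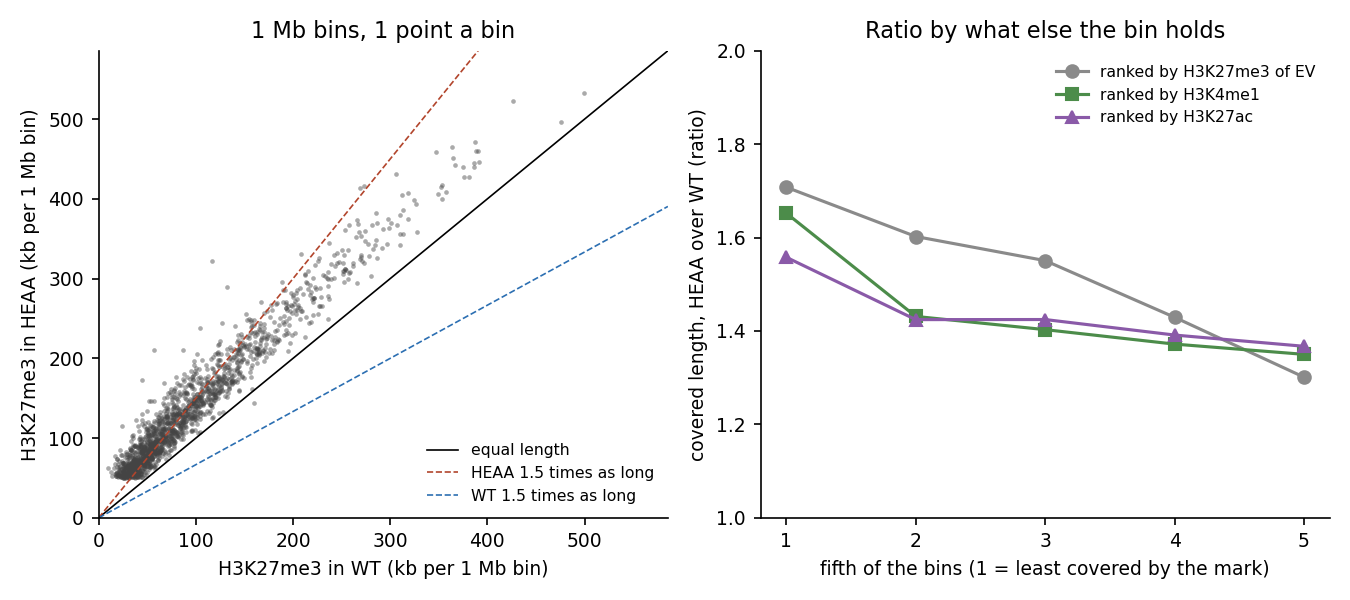
Left, covered kb in HEAA against covered kb in WT, 1 point for each of the 1603 compared 1 Mb bins, with lines for equal length and for 1.5 times as long in HEAA or in WT; right, ratio of covered length HEAA over WT for the 1571 bins with at least 50 kb in EV, ranked into 5 groups by EV H3K27me3, H3K4me1 or H3K27ac length (axis starts at 1). All points but 1 lie above equality, and the ratio by EV H3K27me3 is 1.71 in the group with least and 1.30 in the group with most.

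The 5 bins with the highest ratios are given as a description, since in each WT was below the 50 kb that admitted the bin. On chromosome 2, the bin from 51000001 to 52000000 had 62.2 kb in HEAA, 9.61 kb in WT and 51.4 kb in EV, a ratio of 6.47, made of 89 HEAA and 24 WT regions. On chromosome 6, the bin from 51000001 to 52000000 had 115 kb in HEAA, 23.7 kb in WT and 85.2 kb in EV, a ratio of 4.85. On chromosome 16, the bin from 64000001 to 65000000 had 78.1 kb in HEAA, 17.2 kb in WT and 26.2 kb in EV, a ratio of 4.54. In these 3 bins EV lay between WT and HEAA, an order that choosing bins by a high ratio of HEAA over WT favours. A pair of bins on chromosome 4 followed. The one from 28000001 had 57.8 kb in HEAA, 13.1 kb in WT and 6.85 kb in EV, with EV lowest, and the one from 21000001 had 62.5 kb in HEAA, 15.4 kb in WT and 36.3 kb in EV.

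The bins with the lowest ratios had nearly equal cover. On chromosome 7, the bin from 4000001 to 5000000 was the single one with more in WT, at 144 kb in HEAA, 160 kb in WT and 91.0 kb in EV, a ratio of 0.901. The bin on chromosome 12 from 119000001 had 161 kb in HEAA, 158 kb in WT and 152 kb in EV. The bin on chromosome 2 from 12000001 had 108 kb in HEAA, 105 kb in WT and 25.5 kb in EV, so that both UTX lines were well above the empty vector. The bins on chromosome 15 from 26000001 and on chromosome 7 from 91000001 each had a ratio of 1.04.

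The ratio varied by chromosome. Chromosome 15 had the lowest, at 1.27, with 9 of 56 bins (16.1%) at least 1.5 times longer in HEAA, and chromosome 20 had 1.33, with 10 of 53. Chromosome X had the highest, at 2.04, with 17 of 17 bins, and chromosome 6 had 1.86, with 69 of 80 (86.3%). Neighbouring bins were alike, with a Pearson r of 0.52 and a Spearman rho of 0.54 between the log2 ratio of a bin and that of the next over 1106 pairs.

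Bins rich in H3K27me3 or in active marks had smaller ratios. This was read from the 1571 bins chosen by EV alone, since bins poor in EV often entered the 1603 through HEAA. In the 314 bins with least EV H3K27me3, the ratio was 1.71 and 73.2% of bins were at least 1.5 times as long in HEAA. In the 315 bins with most, the ratio was 1.30 and 9.84% were. By H3K4me1 length, the ratio was 1.65 in the 314 bins with least and 1.35 in the 315 with most. By H3K27ac length it was 1.56 in the 314 bins with least and 1.37 in the 315 with most. These groups of bins were compared with the full lists only. They were not computed at equal covered length, where the gradients by EV domain width and by distance from H3K4me1 turned. The log2 ratio of H3K27me3 between the lines had a Pearson r of 0.13 and a Spearman rho of 0.033 with that of H3K4me1 over the 1603 bins.

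H3K27me3 regions of both lines kept away from acetylated regions. The acetylated frame was the set of 41592 regions, 56.7 Mb, called in both H3K27ac libraries of HEAA or of WT. Of the 116853 HEAA-only regions, 16 met it (0.0137%, interval 0.00843% to 0.0222%), and of the 50065 WT-only regions, 9 did (0.0180%, 0.00946% to 0.0342%). Shared regions met it in 24 cases for HEAA and 25 for WT. The median distance to H3K27ac was 130 kb for HEAA-only and 120 kb for WT-only regions, against 104 kb for shared regions of HEAA and 102 kb for those of WT. In bases, 9.85 kb of HEAA, 8.58 kb of WT and 33.6 kb of EV H3K27me3 lay inside the frame.

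H3K4me1, which also marks inactive and poised elements, overlapped H3K27me3 more. The joined HEAA and WT frame held 193521 regions, 224 Mb. HEAA-only regions met it in 2.95% of cases (interval 2.85% to 3.05%) and WT-only regions in 3.27% (3.12% to 3.43%). This difference of -0.32 points turned to 0.93 points at a −log10 q of 2 or more and to 4.51 points at 3 or more. Shared regions met it in 6.81% of cases for HEAA and 5.65% for WT. The share was higher among wide regions, where 16.0% of shared HEAA regions and 18.0% of shared WT regions of 2 kb or wider met H3K4me1. Below 300 bp it was 2.79% of shared HEAA regions and 2.48% of shared WT regions.

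The ratio of HEAA over WT was above 1 at all distances from H3K27ac. It was 1.39 within 1 kb of an acetylated region, 1.67 from 1 to 2 kb, 1.42 from 50 to 100 kb, 1.55 from 200 to 500 kb and 3.08 beyond 1000 kb. Both lists were densest 100 to 200 kb from H3K27ac, where they covered 16.9% of bases in HEAA, 11.8% in WT and 14.9% in EV. Within 1 kb they covered 0.177% in HEAA, 0.127% in WT and 0.381% in EV. From 1 to 2 kb they covered 0.539% in HEAA, 0.323% in WT and 0.936% in EV, so that both UTX lines were below EV near acetylated regions. The frame itself favours this order, because it was called in the UTX lines. In a frame of EV H3K27ac, cover within 1 kb was 0.220% in HEAA, 0.143% in WT and 0.262% in EV.

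**Figure D5:**
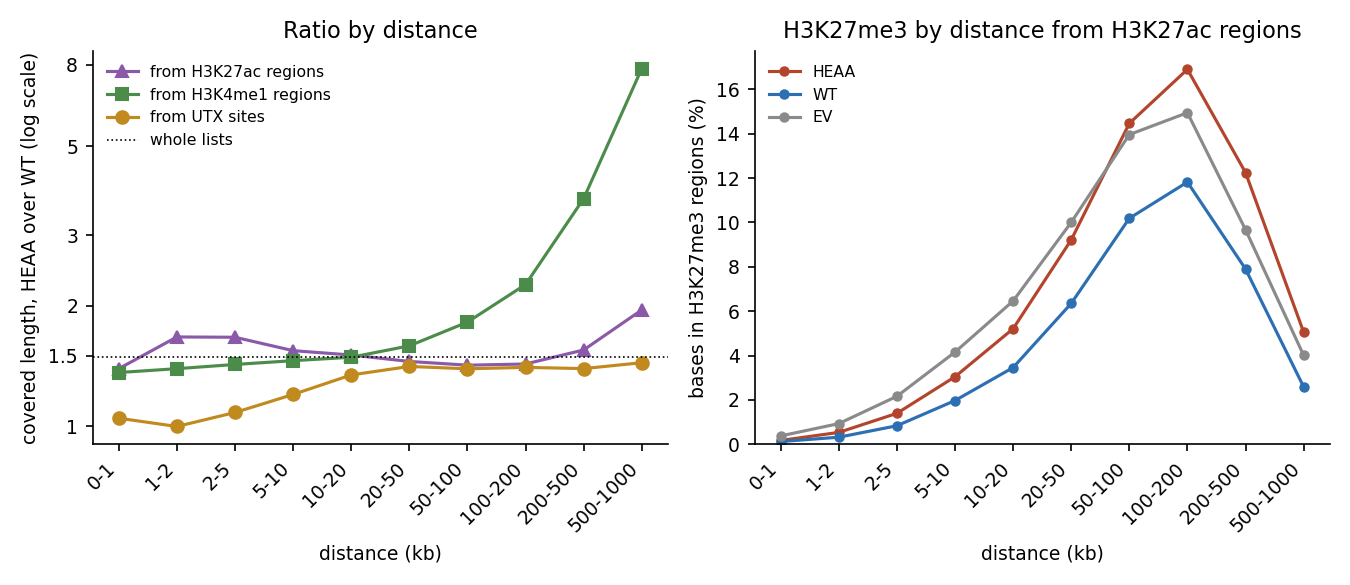
Left, ratio of covered length HEAA over WT on a log scale, by distance in kb from H3K27ac regions, H3K4me1 regions and UTX sites, with the whole-list ratio of 1.49 dotted; right, percentage of bases in H3K27me3 regions of HEAA, WT and EV by distance from H3K27ac. The ratio is near 1 in the bands closest to UTX sites. It is highest 500 to 1000 kb from H3K4me1, a band with only 0.0687 Mb in HEAA and 0.0088 Mb in WT. Cover peaks 100 to 200 kb from H3K27ac at 16.9% in HEAA, 11.8% in WT and 14.9% in EV.

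Distance from H3K4me1 gave a ratio that was larger farther out, up to 1000 kb. It was 1.28 inside H3K4me1 regions, 1.36 within 1 kb, 1.49 from 10 to 20 kb, 1.82 from 50 to 100 kb and 3.70 from 200 to 500 kb. The band from 200 to 500 kb held 0.701 Mb in HEAA and 0.189 Mb in WT, a small part of either list. From 500 to 1000 kb the ratio was 7.82, on 0.0687 Mb in HEAA and 0.0088 Mb in WT, and beyond 1000 kb it was 3.37. Over all bases beyond 100 kb the ratio was 2.43. It was 4.68 at a −log10 q of 2 or more, 5.68 at 3 or more and 1.85 with equal numbers of regions, and it turned to 0.938 at equal covered length. Within 5 kb of H3K4me1, frame included, the ratio was 1.39, and at equal covered length 1.01.

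H3K27me3 was rare on acetylated elements, whether they were acetylated in one line or in both. At the 201 sites acetylated in both HEAA libraries and not in WT, H3K27me3 was called at 1 in HEAA, 0 in WT and 1 in EV. At the 129 sites acetylated in WT and not in HEAA it was called at 0 in HEAA, 1 in WT and 2 in EV. At the 27908 sites acetylated in both lines it was called at 50 in HEAA (0.179%), 39 in WT (0.140%) and 125 in EV (0.448%). Within 5 kb it was called at 17 of the 201 HEAA-only sites in HEAA (8.46%), 16 in WT (7.96%) and 20 in EV (9.95%). At the 129 WT-only sites this was 14 in HEAA (10.9%), 10 in WT (7.75%) and 19 in EV (14.7%). Within 5 kb of the sites of both lines, H3K27me3 was called at 1812 in HEAA (6.49%), 1286 in WT (4.61%) and 2760 in EV (9.89%). Of these, 715 had it in HEAA and not in WT, and 189 in WT and not in HEAA.

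H3K4me1 regions called in HEAA alone carried H3K27me3 more often in HEAA, and so did those called in WT alone. Of the 38026 H3K4me1 regions of HEAA alone, 10.0% met H3K27me3 in HEAA, 7.22% in WT and 11.3% in EV. Of the 29755 of WT alone, 8.55% met it in HEAA, 7.44% in WT and 10.8% in EV. Of the 125740 called in both lines, 5.21% met it in HEAA, 4.28% in WT and 7.15% in EV. The number of elements met, HEAA over WT, had a ratio of 1.39 at the HEAA-only elements, 1.15 at the WT-only elements and 1.22 at the elements of both. These are ratios of counts and not of covered length.

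Around UTX binding sites the covered length of HEAA and WT was close to equal, except inside the sites, where few bases were covered. The sites were 1690 UTX peaks called in both WT and HEAA that overlapped no EV peak. H3K27me3 overlapped 5 sites in HEAA, 2 in WT and 4 in EV, and covered 0.218% of site bases in HEAA, 0.0957% in WT and 0.162% in EV, a ratio of 2.28 for HEAA over WT. H3K27me3 lay within 1 kb of 47 sites in HEAA, 45 in WT and 26 in EV, and 37 sites had it in both HEAA and WT. It lay within 5 kb of 120 sites in HEAA, 111 in WT and 110 in EV. Within 10 kb the counts were 172 in HEAA, 169 in WT and 212 in EV. The ratio of covered bases for HEAA over WT was 1.05 within 1 kb of a site, 0.998 from 1 to 2 kb, 1.20 from 5 to 10 kb and 1.64 beyond 1000 kb. Sites within 1 kb of H3K27me3 were mostly outside acetylated regions: 42 of 47 in HEAA, 38 of 45 in WT and 23 of 26 in EV. Of all 1690 sites, 300 were outside. H3K27me3 seldom lay inside or near acetylated regions anywhere, so nothing further is read from this split.

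The ratio near UTX sites was below that of the whole lists under every list length tried. Within 5 kb of the sites, sites included, HEAA covered 0.343 Mb and WT 0.323 Mb, a ratio of 1.06 against 1.49 for the whole lists. At a −log10 q of 2 or more it was 1.18 against 2.06, and at 3 or more 1.42 against 3.11. With equal numbers of regions it was 0.998 against 1.35. At equal covered length, where the whole lists stand at 1, it was 0.876. The EV domains of 100 kb or wider, one of several other places with a low ratio, had 1.17, 1.41, 2.40, 1.15 and 1.07 under the same settings. The bases near UTX sites are few, and the difference could not be set against a spread between replicates.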

How the data were processed

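ChIP-seq of H3K27me3 in the HEAA, WT and EV lines was analysed from broad-region lists, with lists of H3K27ac, H3K4me1 and UTX as positions. MACS2, hg19 and GRCh37 are named in the submitters' processing notes; its version, the aligner and duplicate handling are not given in the sources used. The authors deposited for each region a linear ratio, its fold enrichment over background. They also deposited its p-value and q-value, each as −log10, and all q were at or below 0.1. Fold and q served only to describe, rank or filter regions within a list. Depth cannot be read from the files, so it is unknown.

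Groups came from the sample titles. Intervals were compared with custom code in Python 3.11.15, NumPy 2.4.6 and pandas 2.3.3, and drawn with matplotlib 3.10.9. Chromosomes 1 to 22 and X were kept, which left out 132 regions of HEAA, 100 of WT and 104 of EV. Code for overlaps was tested on simulated intervals with planted sharing. The acetylated frame joined bases called in both libraries of HEAA or of WT, and the H3K4me1 frame joined both lines. Named regions were the 10 shared regions ranking highest by fold over both lists, the 10 HEAA-only and 10 WT-only regions of at least 1000 bp with the highest fold, the 5 highest and 5 lowest bins by ratio, and the 5 widest domains. Regions, lists and alternatives were chosen with earlier results of these data known. Positions are on hg19, counted from 1. An annotation or genome of that build was not used here, so regions were not assigned to genes, no sequence is shown, the line was not checked against marker genes, and planned comparisons of HOX, luminal, basal, mesenchymal, neuronal and blood genes were not run. Lists of MLL4 were not used here.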

Additional observations from a re-analysis of the deposited data

How the results depend on the processing

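No paired analysis was possible because each line had 1 H3K27me3 list and no value comes from a test. With −log10 q of at least 2 and at least 3, the coverage ratio of 1.49 was 2.06 and 3.11. The share of HEAA regions shared with WT was 35.4% and 21.9%, that of WT regions shared with HEAA 71.0% and 55.9%, and the difference between width classes 64.9 and 37.3 points. At 3, 333 of 343 bins were at least 1.5 times longer in HEAA. The difference between HEAA-only and WT-only regions reversed for H3K4me1, to 0.934 and 4.51 points, was 0.0163 points for H3K27ac at 3, and was 3.73 and 4.62 points for presence in EV. With equal numbers of regions the coverage ratio was 1.35, the shares 58.8% in HEAA and 69.2% in WT, the width difference 72.5 points, the bins 414 of 1456 and the EV difference 1.36 points, and the ratio within 5 kb of UTX sites reversed to 0.998.

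Other rules of overlap moved the shares: 34.5% of HEAA and 62.8% of WT regions when at least 50% had to be covered, 69.4% of HEAA and 88.7% of WT when a region within 1 kb sufficed, and 52.5% of HEAA and 73.4% of WT with regions joined over 1 kb, where the coverage ratio was 1.45. Without chromosome X it was 1.49. Bins at least 1.5 times as long in HEAA were 345 of 951 with a bin minimum of 100 kb and 200 of 401 with bins of 5 Mb. Divided by the whole-list ratio, 122 bins were at least 1.5 times higher and 1 at least 1.5 times lower. Leaving out either H3K27ac library gave differences of -0.0334 to -0.00600 points.

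At equal covered length, added after the data were seen, the shares were 69.6% in HEAA and 52.0% in WT, the width difference 69.9 points and the bins 17 in HEAA and 35 in WT, of 1218. The EV difference reversed to -2.16 points. The ratio reversed to 0.876 within 5 kb of UTX sites, 0.938 beyond 100 kb from H3K4me1, 0.802 in EV domains below 1 kb and 0.800 outside EV domains; away from UTX sites, these ratios stayed above 1 under both q limits and with equal numbers of regions. The cause was not tested. With 1 library a side and unknown depth, list length and H3K27me3 amount cannot be told apart.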
